A study of Mus musculus with 20 samples.

Results

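The interferon-inducible GTPases of the Gbp and Irg families were examined in the livers of 20 mice. The 9 genes were chosen by their symbol in the deposited tables and are Gbp2, Gbp3, Gbp6, Gbp7 and Gbp9 of the guanylate-binding proteins and Irgm1, Irgm2, Igtp and Iigp1 of the immunity-related GTPases. They are 9 of the 25444 loci in the tables, and all 9 passed the filter on low counts that left 13704 loci to test. The mice were 5 females and 5 males of the C57BL/6N strain (B6_F and B6_M) and 5 females and 5 males of the C3H/HeN strain (C3_F and C3_M). All were inbred, untreated, housed singly and 20 weeks old, and RNA was taken from the left lateral lobe. The sexes were housed in different rooms, and an effect of the room cannot be told apart from one of sex. RNA came from whole liver, in which fewer cells of a type and less RNA per cell cannot be told apart either.

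Interferon-gamma, made by T and NK cells, signals through the receptor chains Ifngr1 and Ifngr2 to gamma-activated sites (GAS) in its target genes, of which Irf1 is an early one. Type I interferons act on interferon-stimulated response elements (ISRE) through a complex that holds Stat2 and Irf9. The Gbp and Irg genes are among the most strongly induced targets, and their products defend cells from within by attacking the vacuoles of parasites and bacteria. Irgm1, Irgm2 and Igtp (also called Irgm3) are the regulatory members, which sit on the cell's own membranes and hold effector members such as Iigp1 (also called Irga6) inactive. Gbp2 and Gbp7 gather on pathogen vacuoles, and Gbp7 is also tied to the assembly of the phagocyte oxidase. Iigp1 is known to be transcribed in mouse liver without infection.

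The members lie in clusters in the mm9 genome. On chromosome 3, on the forward strand, Gbp7 spans chr3:142193300-142213115, Gbp3 spans chr3:142223016-142236176 and Gbp2 spans chr3:142283627-142300972. On chromosome 5, on the reverse strand, Gbp9 spans chr5:105507413-105539311 and Gbp6 spans chr5:105699721-105722718. On chromosome 11 Irgm1 spans chr11:48678751-48684848 on the reverse strand, whereas Igtp at chr11:58013058-58021094 and Irgm2 at chr11:58028479-58036285 are neighbours on the forward strand. No other locus of the table overlapped a member on the same strand. The microRNA locus Mir6381 overlaps Gbp2 on the opposite strand, and reads were counted by strand.

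The 250 bases before the annotated starts were read from the mm9 genome. Windows of 250 bases before to 50 bases after the start were searched on both strands for an ISRE core, GAAANNGAAA, and for a GAS core, TTCNNNGAA. The ISRE core was found in 3.57% of 25283 windows of all loci and in 7 of the 9 members. The GAS core was found in 7.88% of all windows and in 4 of the 9 members. Of 15 other tested GTPases of both families, 9 held an ISRE core and 7 a GAS core. Each of the 4 members with a GAS core (Gbp7, Irgm2, Igtp and Iigp1) also held an ISRE core. The ISRE cores of Gbp2, Gbp3 and Gbp7 began 59, 53 and 53 bases before the start. Gbp3 held a second ISRE core that overlapped the first, as did Irgm1. Neither Gbp6 nor Gbp9 held a core, and neither did Gbp4, Gbp8, Gbp10 or Gbp11 of the same chromosome 5 cluster. The sequences of 6 members are shown 5′ to 3′ in the direction of transcription, with the matched cores in capitals: the 3 members of chromosome 3, whose sex difference passed the test in C3 mice, the neighbours Igtp and Irgm2, and Gbp6 as a gene without a core.
Gbp2, chr3:142283377-142283626, forward strand: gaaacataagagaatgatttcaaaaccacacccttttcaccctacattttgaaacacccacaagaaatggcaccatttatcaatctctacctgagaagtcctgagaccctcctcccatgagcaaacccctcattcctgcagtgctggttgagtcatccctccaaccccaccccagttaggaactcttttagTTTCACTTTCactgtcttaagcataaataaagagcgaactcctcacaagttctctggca
Gbp3, chr3:142222766-142223015, forward strand: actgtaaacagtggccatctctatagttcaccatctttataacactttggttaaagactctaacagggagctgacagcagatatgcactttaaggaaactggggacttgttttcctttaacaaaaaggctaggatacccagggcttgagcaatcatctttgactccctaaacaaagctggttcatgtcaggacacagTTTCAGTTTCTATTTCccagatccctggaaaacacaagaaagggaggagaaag
Gbp7, chr3:142193050-142193299, forward strand: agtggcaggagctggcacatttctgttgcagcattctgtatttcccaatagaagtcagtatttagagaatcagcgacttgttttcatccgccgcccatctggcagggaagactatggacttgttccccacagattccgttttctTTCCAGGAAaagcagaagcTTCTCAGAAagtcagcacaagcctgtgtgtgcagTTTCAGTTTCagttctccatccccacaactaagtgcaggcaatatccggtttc
Igtp, chr11:58012808-58013057, forward strand: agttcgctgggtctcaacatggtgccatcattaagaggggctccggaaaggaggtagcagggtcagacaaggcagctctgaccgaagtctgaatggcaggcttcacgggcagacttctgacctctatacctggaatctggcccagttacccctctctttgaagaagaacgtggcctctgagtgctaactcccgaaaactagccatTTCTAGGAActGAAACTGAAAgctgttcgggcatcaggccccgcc
Irgm2, chr11:58028229-58028478, forward strand: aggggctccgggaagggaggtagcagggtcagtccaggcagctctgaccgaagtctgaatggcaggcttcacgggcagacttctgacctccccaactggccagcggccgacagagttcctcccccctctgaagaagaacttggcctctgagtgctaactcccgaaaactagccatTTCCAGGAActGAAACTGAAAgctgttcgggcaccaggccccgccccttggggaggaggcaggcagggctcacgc
Gbp6, chr5:105722719-105722968, reverse strand: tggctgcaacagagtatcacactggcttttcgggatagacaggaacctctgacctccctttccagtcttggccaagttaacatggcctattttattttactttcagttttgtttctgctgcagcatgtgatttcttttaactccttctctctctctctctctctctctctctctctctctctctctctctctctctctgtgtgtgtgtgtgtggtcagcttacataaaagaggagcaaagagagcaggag
In Igtp and Irgm2 a GAS core stood just before the ISRE core in the same arrangement. Tgtp1, Tgtp2 and Gm12185, which are other immunity-related GTPases of chromosome 11, held this arrangement as well. With the ISRE cores laid over each other, 58 of the 60 bases that end with the core were identical in Igtp and Irgm2, and 134 of 220 were identical over the whole overlap. In Gbp7 both GAS cores lay further from the ISRE core. A match describes these letters only, and binding was not measured.

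**Figure D1:**
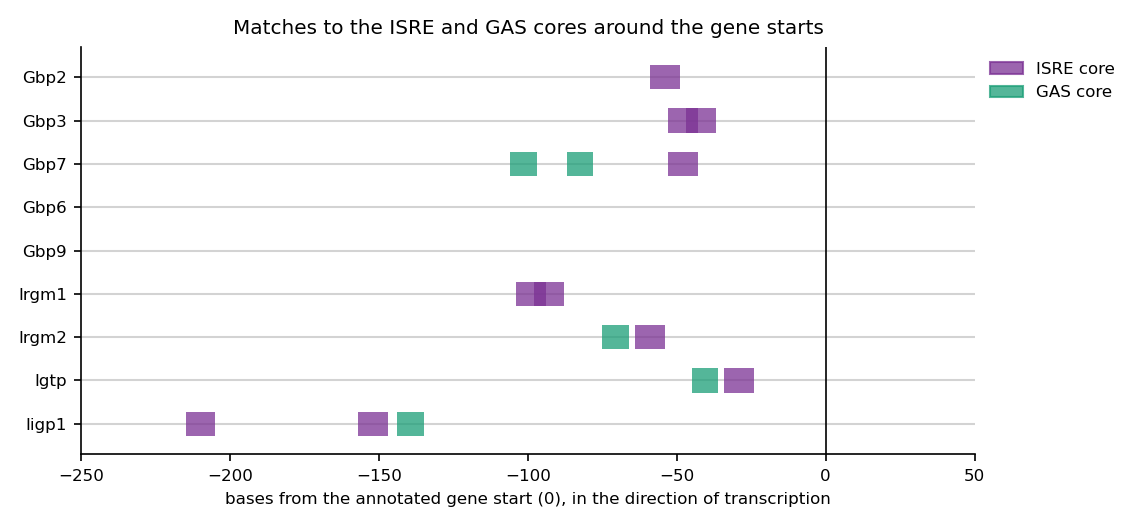
Positions of the ISRE core (purple) and the GAS core (green) in the window of each member, in bases from the annotated gene start at 0. The matches of Gbp2, Gbp3 and Gbp7 to the ISRE core sit at nearly the same distance from the start, and the lines of Gbp6 and Gbp9 are empty.

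Each library held between 27370921 and 46835745 counts, and depth followed the sequencing pool, of which there were 3, with 1 or 2 mice of every group in each. The lowest count of any member in any liver was 70, for Gbp2, and the highest was 29525, for Iigp1. The tissue label was checked against 10 hepatocyte genes, all of which were measured, and their summed level lay between 96500 and 195000 in every liver in units of TPM. TPM divide counts by gene length and scale each library to a common sum, so that levels of different genes can be compared, and all levels below are TPM. Fold changes and tests are from the counts, fitted in edgeR with group and pool. Called genes are those past both limits of the study's methods, an adjusted p (Benjamini-Hochberg) below 0.001 and a log2 fold change of more than 0.5 in either direction. Male livers C3_M replicate 1 and B6_M replicate 4 stood apart from their groups in several members, and the counts of members called are given with and without them, as are those of other genes where they changed.

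Iigp1, which spans chr18:60535683-60552283 on the forward strand of mm9, was the most abundant member in every group. Its mean level was 420 ± 76.0 TPM (SD, n = 5) in B6_F, 258 ± 54.3 in B6_M, 417 ± 105 in C3_F and 322 ± 64.6 in C3_M. It gave between 53.9% and 74.0% of the summed level of the 9 members in single livers. No other member reached the lowest Iigp1 level of its group in any liver. The regulatory members came next. Irgm1 had 69.3 ± 13.9 TPM in B6_F, 57.4 ± 13.2 in B6_M, 48.6 ± 7.92 in C3_F and 42.5 ± 6.81 in C3_M. The livers of Irgm1, Irgm2 and Igtp that were next to each other in the order of levels overlapped within every group, except that Irgm1 stood above Irgm2 in B6_M without overlap. The lowest of the 3 did not overlap with Gbp7, the next member, in B6_F, B6_M and C3_M, and did in C3_F. The Gbp members were lower, with group means between 2.63 TPM for Gbp2 in C3_M and 20.0 TPM for Gbp7 in C3_F. By these values Gbp7 had the highest mean of the 5 Gbp members in every group. In B6_M its mean was 7.63 TPM, beside 7.56 for Gbp6, whose level is uncertain because of shared sequence (below). The livers of Gbp7 overlapped with those of the next member in every group.

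The order among the other Gbp members differed by group. In both female groups Gbp3 was next after Gbp7, with 17.1 ± 3.69 TPM in B6_F and 14.4 ± 3.11 in C3_F. In the male groups the mean of Gbp3 was below that of Gbp6, with 5.72 ± 1.51 TPM in B6_M and 4.01 ± 1.26 in C3_M. In B6_M the means of Gbp7, Gbp6, Gbp2, Gbp3 and Gbp9 lay between 5.53 and 7.63 TPM, and each overlapped its neighbour. The summed level of the 9 members lay between 524 and 795 TPM in the B6_F livers, 325 and 477 in B6_M, 467 and 763 in C3_F, and 384 and 565 in C3_M. Every B6_F liver was therefore above every B6_M liver in this sum, while the C3 groups overlapped.

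**Figure D2:**
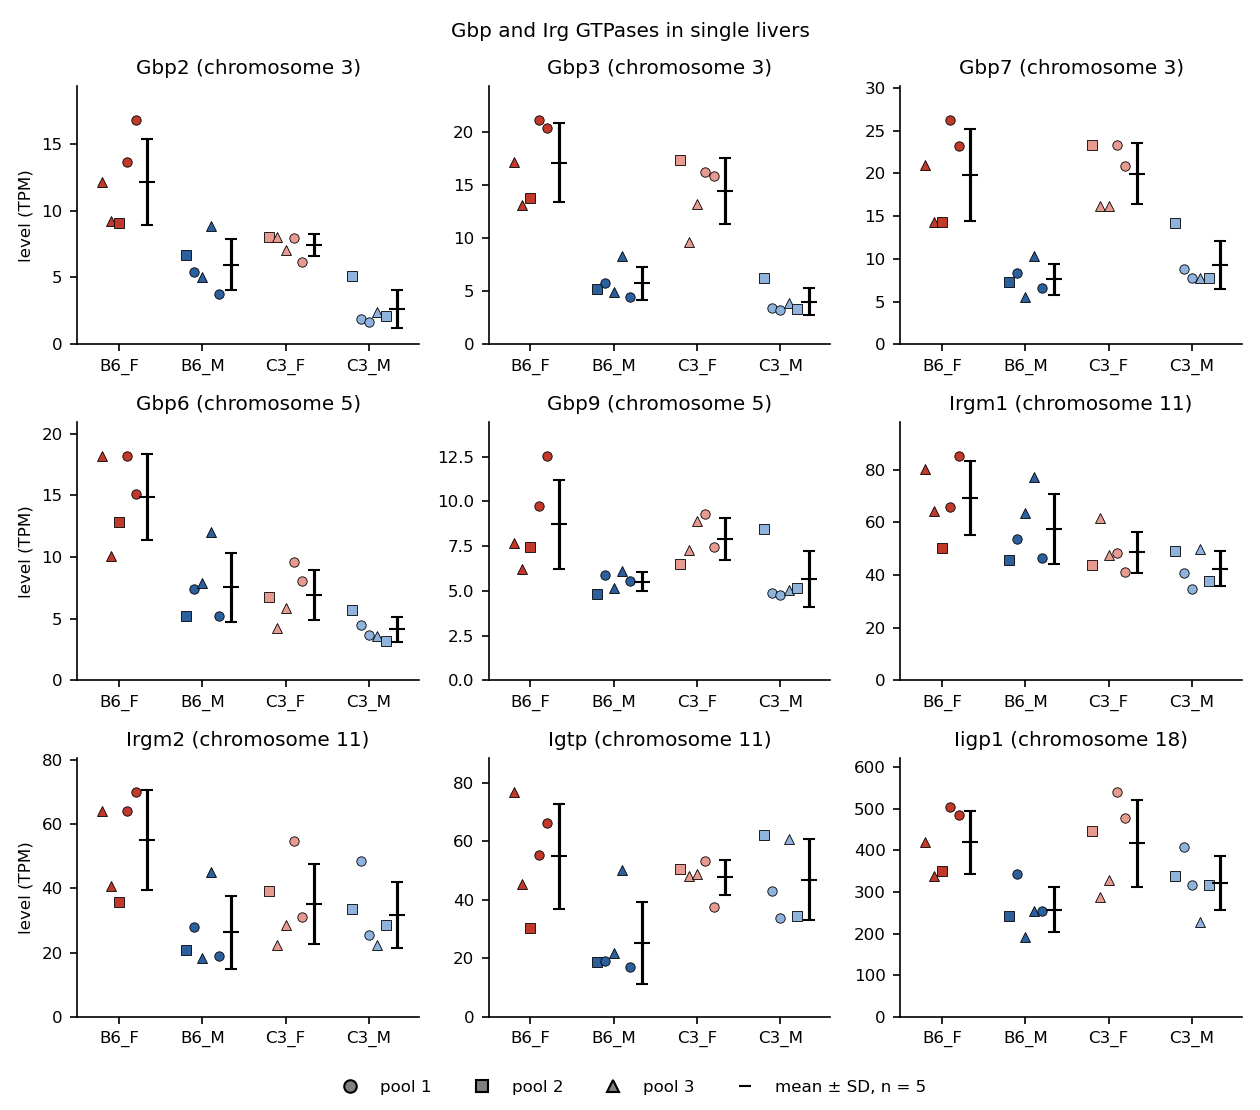
Level of each member in TPM (linear axis from 0, its own scale in each panel) in the 5 livers of each group, with the symbol giving the sequencing pool and the black bar the mean ± SD. The 5 female livers of either strain lie above the 5 male livers for Gbp3 and Gbp7, and 1 liver each of B6_M and C3_M stands above the rest of its group in several panels.

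Reads that could not be placed uniquely were not counted, which matters for genes with close copies. The transcripts of each member were cut into all words of 125 bases, the length of a read, and searched in the transcripts of all other protein-coding genes. Gbp6 shared 58.3% of its words with Gbp10 or Gbp11, so its counts come from part of its sequence and are uncertain. Its TPM divide these counts by gene length, so its place in the order of levels is uncertain too. Irgm2 shared 0.507% of its words with Igtp, Igtp shared 0.795% with Irgm2, and Gbp9 shared 0.57% with Gbp4. The other 5 members shared none. Reads of C3 mice were aligned to the mm9 genome, which is of the B6 background, and the effect of this on the strain comparisons was not tested.

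In B6 mice all 9 members had a higher estimate in females than in males, beside 50.2% of all genes, and 3 were called, Gbp3, Gbp7 and Iigp1. Over all genes, 3.23% were called higher in females. Gbp3 had 17.1, 13.1, 13.8, 21.1 and 20.4 TPM in the 5 B6_F livers and 5.18, 5.79, 4.90, 8.28 and 4.45 in the 5 B6_M livers. The groups did not overlap, and the lowest female was above the highest male. The fitted difference was 2.73-fold (log2 1.45 ± 0.21, SE, adjusted p = 3.9e-05). Gbp7 had 21.03, 14.3, 14.3, 26.3 and 23.2 TPM in B6_F and 7.30, 8.33, 5.53, 10.3 and 6.63 in B6_M. These groups did not overlap either, with a 2.38-fold difference (log2 1.25 ± 0.20, adjusted p = 0.00012). Iigp1, the effector GTPase, had 421, 339, 350, 505 and 486 TPM in B6_F and 242, 343, 192, 255 and 255 in B6_M. Only B6_M replicate 2 reached into the female range. The difference was 1.51-fold (log2 0.59 ± 0.11, adjusted p = 0.00061).

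At an adjusted p under 0.05 with no limit on the fold change, 8 of the 9 members were higher in B6 females, beside 16.2% of all genes. The median log2 difference of the members was 0.92, and that of all genes was 0.00178. Igtp, a regulatory member, had 76.8, 45.3, 30.3, 55.3 and 66.3 TPM in B6_F and 18.6, 18.9, 21.8, 50.2 and 17.1 in B6_M. Male replicate 4 alone lay within the female range, and the difference was 2.06-fold (log2 1.04 ± 0.26, adjusted p = 0.0043). Its neighbour Irgm2 had 64.3, 40.7, 35.7, 64.3 and 70.1 TPM in B6_F and 20.9, 28.1, 18.4, 45.2 and 18.9 in B6_M, again with male replicate 4 inside the female range (1.89-fold, log2 0.92 ± 0.27, adjusted p = 0.015). Gbp2 had 12.1, 9.22, 9.09, 13.6 and 16.8 TPM in B6_F and 6.67, 5.43, 5.06, 8.87 and 3.76 in B6_M, without overlap (1.92-fold, log2 0.94 ± 0.25, adjusted p = 0.0075). Gbp6 differed 1.81-fold (adjusted p = 0.012) and Gbp9 1.44-fold (adjusted p = 0.027). Irgm1 was the exception, with overlapping groups and a log2 difference of 0.17 ± 0.13 (adjusted p = 0.31). The TPM of females and males did not overlap for Gbp2, Gbp3, Gbp7 and Gbp9, all 4 higher in females, beside 9.45% of all genes. In pools 1, 2 and 3 taken alone, 9, 9 and 8 of the 9 members were higher in females. Pool 2 held 1 B6 mouse of each sex, and the members vary together, so these tallies are not separate tests. The share of all genes was not computed by pool.

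The number of members called in B6 depended on single livers. Without B6_M replicate 4, 5 members were called, with Igtp (log2 1.35, adjusted p = 0.00023) and Irgm2 (log2 1.28, adjusted p = 0.00041) added. Over all genes 429 of 13796 were then called higher in females. Without both B6_M replicate 4 and C3_M replicate 1, which had been picked for their high levels and whose omission lowers the male means, 7 members were called. Over all genes this called 426 of 13787 higher in females. When only the 2 groups compared were fitted, Gbp3 alone remained past both limits, beside 272 of 13327 genes called higher in females. Iigp1 lost its call without any 1 of B6_F replicates 1, 2, 4 and 5 or B6_M replicates 1, 3 and 5, with adjusted p up to 0.0027, and without a pool term (adjusted p = 0.049). Gbp3 kept its B6 call in every alternative run. Gbp7 kept its B6 call with each liver left out (adjusted p up to 0.00063) and lost it only in the fit of the 2 groups compared.

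In C3 mice 8 of the 9 members had a higher estimate in females, beside 51.9% of all genes, and 3 were called, Gbp2, Gbp3 and Gbp7, which are the 3 members on chromosome 3. Over all genes, 4.11% were called higher in females. Gbp2b and Gbp5, which also lie on chromosome 3 but are not members, were not called. Their log2 differences in C3 were 0.84 (adjusted p = 0.11) and 0.33 (adjusted p = 0.46). Gbp3 had 17.4, 9.58, 13.2, 16.2 and 15.9 TPM in C3_F and 6.22, 3.39, 3.23, 3.92 and 3.30 in C3_M. The groups did not overlap, and the fitted difference was 3.40-fold (log2 1.77 ± 0.22, adjusted p = 7.1e-06). Gbp2 had 8.02, 8.02, 7.05, 7.92 and 6.15 TPM in C3_F and 5.09, 1.86, 1.64, 2.43 and 2.11 in C3_M. Again the groups did not overlap, although male replicate 1 stood near the females, and the difference was 2.75-fold (log2 1.46 ± 0.27, adjusted p = 0.00052). Gbp7 had 23.3, 16.2, 16.2, 23.4 and 20.8 TPM in C3_F and 14.2, 8.78, 7.77, 7.78 and 7.79 in C3_M, without overlap (2.05-fold, log2 1.04 ± 0.20, adjusted p = 0.00075). These were the only 3 members whose C3 groups did not overlap, beside 11.8% of all genes with higher females.

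The other 6 members did not reach the limits in C3 mice. Iigp1 had 448, 289, 330, 541 and 479 TPM in C3_F and 339, 409, 317, 229 and 317 in C3_M, with overlap (1.24-fold, log2 0.30 ± 0.11, adjusted p = 0.042). With it, 4 members were higher in females at an adjusted p under 0.05, beside 20.1% of all genes. Gbp6 had a log2 difference of 0.60 ± 0.26 (adjusted p = 0.07) and Gbp9 of 0.39 ± 0.18 (adjusted p = 0.094). The regulatory members lay close to 0. Igtp had 50.4, 48.1, 48.9, 53.4 and 37.7 TPM in C3_F and 62.1, 43.1, 33.9, 60.7 and 34.5 in C3_M, so that 2 males exceeded every female. Its log2 difference was -0.15 with a 95% interval from -0.69 to 0.38 (adjusted p = 0.65). Irgm2 had a log2 difference of 0.04, with an interval from -0.54 to 0.61, and Irgm1 of 0.00464, with an interval from -0.27 to 0.28. The median log2 difference of the 9 members was 0.39, beside 0.0146 for all genes. In pools 1, 2 and 3 taken alone, 9, 7 and 7 of the 9 members were higher in females. Pool 2 held 1 C3 female and pool 3 held 1 C3 male, so these tallies rest on few mice. Leaving out C3_M replicate 1, or both livers that stood apart, left 3 members called. Over all genes 452 of 13839 and 441 of 13787 were then called higher in females. In the C3 comparison, Gbp3 kept its call in every alternative, whereas Gbp2 and Gbp7 lost theirs without any 1 of C3_F replicates 1, 3 and 4 or C3_M replicates 2, 3, 4 and 5, with adjusted p up to 0.0046. Gbp7 alone lost its call without B6_F replicate 5, B6_M replicate 1 or 2, or C3_F replicate 5, with adjusted p up to 0.0017. Without a pool term Gbp3 alone was called, and when only the 2 groups compared were fitted Gbp2 lost its call.

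**Figure D3:**
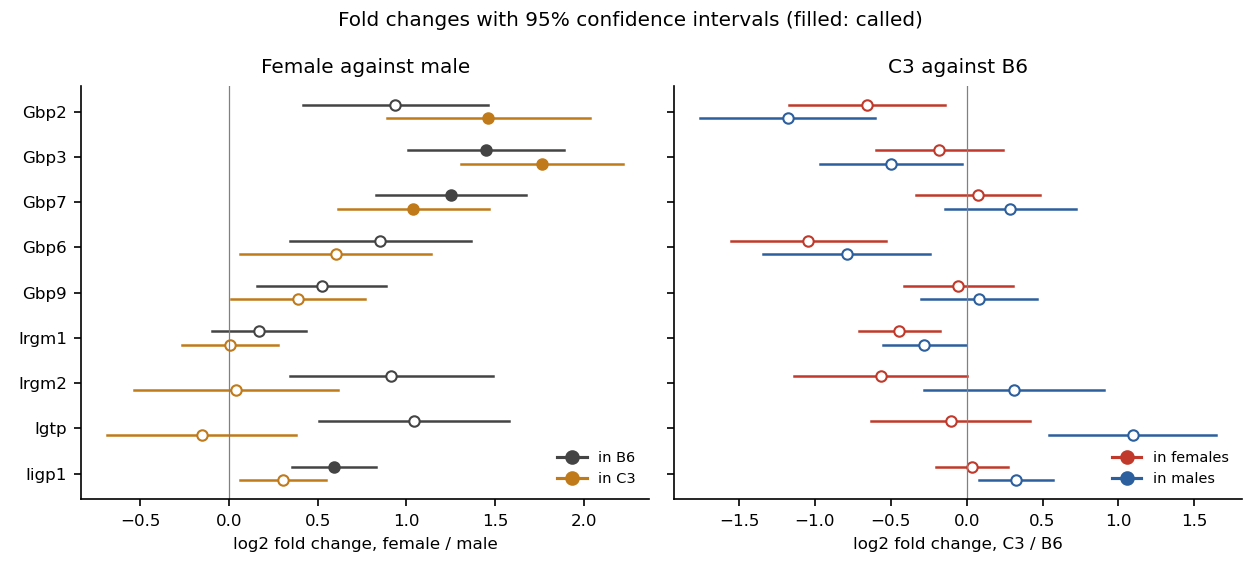
Log2 fold change of each member with its 95% confidence interval, female over male in each strain (left) and C3 over B6 in each sex (right), with filled points for called members. The sex differences of Gbp2, Gbp3 and Gbp7 lie above 0.9 in both strains, while Irgm2 and Igtp lie near 1 in B6 and near 0 in C3.

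Whether the sex difference depended on strain was tested by the interaction of sex and strain, where a negative value is a smaller ratio of females to males in C3 mice. edgeR called none of the 9 members, DESeq2 and limma called none, and 2 members had an unadjusted p under 0.05, Igtp and Irgm2, beside 16.1% of all genes. Over all genes 0.401% were called. Igtp had the largest interaction of the members, a log2 of -1.20 ± 0.36 (adjusted p = 0.082), and Irgm2 had -0.88 ± 0.39 (adjusted p = 0.26). The adjusted p of Igtp ranged from 0.011 to 0.18 over the livers left out in turn, with the lowest value without B6_M replicate 4, and from 0.013 to 0.33 over the other alternatives. With the replicate number as a block it was 0.013 and with DESeq2 0.047. That of Irgm2 ranged from 0.044 to 0.42 over the livers left out, again lowest without B6_M replicate 4. The estimates of Gbp2 and Gbp3 were positive, with log2 values of 0.52 ± 0.37 (adjusted p = 0.53) and 0.32 ± 0.30 (adjusted p = 0.66). A difference between the strains was thus not shown for any member at the limits used.

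Between the strains no member was called in females, and 3 had an unadjusted p under 0.05, beside 41.9% of all genes. Over all genes 9.40% were called in either direction. At an adjusted p under 0.05 the same 3, Gbp2, Gbp6 and Irgm1, were lower in C3, beside 15.3% of all genes. Gbp6 had 18.2, 10.1, 12.9, 18.2 and 15.1 TPM in B6_F and 6.74, 4.25, 5.91, 9.60 and 8.06 in C3_F. Every C3 female was below every B6 female, and the fitted level was 2.06-fold lower in C3 (log2 -1.04 ± 0.24, adjusted p = 0.0029). DESeq2 called it (adjusted p = 0.00096), as did edgeR without B6_M replicate 4 (adjusted p = 0.00087). limma called no member. Gbp6 shares 58.3% of its words with Gbp10 or Gbp11. Gbp10 shares 59.5% of its words with Gbp6 or Gbp8, whereas Gbp11 shares 4.56% with Gbp4, Gbp6 or Gbp8. In females Gbp10 had a log2 difference of C3 against B6 of -0.14 (adjusted p = 0.77), and Gbp11 was higher in C3 (log2 2.71). How C3 reads were placed between these copies on the B6 genome was not tested, so the Gbp6 value is uncertain. Gbp2 also did not overlap between the female groups, and was 1.58-fold lower in C3 (log2 -0.66 ± 0.25, adjusted p = 0.048). For these 2 non-overlapping members the background was 8.08% of all genes lower in C3. Irgm1 was 1.36-fold lower in C3 females (log2 -0.44 ± 0.13, adjusted p = 0.011). Iigp1 had nearly equal means, with a log2 difference of 0.04 and a 95% interval from -0.20 to 0.28.

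In males no member was called by edgeR either, and 6 had an unadjusted p under 0.05, beside 44.3% of all genes. DESeq2 called 2 members, Gbp2 and Igtp, and limma called none. Over all genes edgeR called 9.64% in either direction. At an adjusted p under 0.05, 2 members were lower in C3 and 2 were higher, beside 17.5% and 17.0% of all genes. Gbp2 was lower in C3 males by 2.26-fold (log2 -1.18 ± 0.28, adjusted p = 0.0027). In these livers C3_M replicate 1, with 5.09 TPM, was the only C3 male above the lowest B6 male, and without it Gbp2 was called (log2 -1.48, adjusted p = 9.8e-05). Gbp6 was 1.73-fold lower (adjusted p = 0.026), in the same direction as in females and with the same uncertainty from shared sequence. Igtp was 2.13-fold higher in C3 males (log2 1.09 ± 0.26, adjusted p = 0.0033), with 4 of the 5 B6 males at or below 21.8 TPM and every C3 male at or above 33.9 TPM. B6_M replicate 4, at 50.2 TPM, lay within the C3 range, and without it Igtp was called (log2 1.37, adjusted p = 0.00016). With the replicate number as a block Igtp was called as well (adjusted p = 0.00021). Iigp1 was 1.25-fold higher in C3 males (adjusted p = 0.036). Without both livers that stood apart 2 members were called in males, Gbp2 and Igtp, and 1 in females, Gbp6. Of 13787 genes, 490 were then called higher and 617 lower in C3 in males, and 611 and 645 in females. The comparisons of the 2 sexes and the 2 strains share groups, so that a low or high group enters more than 1 of them.

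Among the other guanylate-binding proteins, 6 of 7 listed symbols were in the table and all 6 were tested. None was called between the sexes, and their median log2 difference of female against male was 0.79 in B6 and 0.49 in C3. Gbp11, next to Gbp6 on chromosome 5, was the only one called between the strains. It had 17.8 TPM in B6_F, 9.49 in B6_M, 109 in C3_F and 60.8 in C3_M on average, a log2 difference of C3 against B6 of 2.71 in females (adjusted p = 0.0001) and 2.90 in males (adjusted p = 7.1e-05). Of the other immunity-related GTPases, 9 loci were tested. Only Irgq, a distant relative, was called, and it was lower in C3 females than in C3 males (log2 -0.51, adjusted p = 0.00065). The list had a median log2 sex difference of 0.61 in B6 and -0.31 in C3. Without both C3_M replicate 1 and B6_M replicate 4, Irgq lost its call, Gbp10 was called between the sexes in B6 and Tgtp2 between the strains in females.

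Of the interferon ligands and receptors 5 of 14 were tested and none was called, with median log2 sex differences of 0.28 in B6 and 0.33 in C3. Ifng, the ligand, was at 5 counts or fewer in every library and at 0 in every C3_M liver. A count of 0 allows a level of up to 3 counts, which is between 0.0681 and 0.110 CPM (counts scaled to the library total) in the C3_M libraries. Its receptor chain Ifngr1 was higher in females by a log2 of 0.28 in B6 (adjusted p = 0.00062) and 0.35 in C3 (adjusted p = 0.00012), under the limit on the fold change. Ifngr2 had log2 differences of 0.33 in B6 (adjusted p = 0.066) and 0.33 in C3 (adjusted p = 0.063). The 15 JAK-STAT and IRF genes had median log2 sex differences of 0.21 in B6 and 0.11 in C3. Of these, Irf1 was called higher in B6 females (log2 0.72, adjusted p = 0.00028), with a log2 difference of 0.11 in C3 (adjusted p = 0.52). Irf8 had log2 sex differences of 0.51 (adjusted p = 0.026) and 0.57 (adjusted p = 0.016). Stat2 was called higher in C3 males than in B6 males (log2 0.64, adjusted p = 5.4e-05). None of the 10 negative regulators, such as Socs1 and Usp18, was called in any comparison, and their median sex differences were 0.29 and -0.09. Without both livers that stood apart Usp18 was called in B6.

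Other targets of interferon were also compared. Of 18 interferon-gamma targets tested, 3 were called higher in B6 females, the immunoproteasome subunit Psmb10 (log2 0.77), the peptide-loading protein Tapbp (0.63) and Parp14 (0.60). In C3 the adhesion molecule Icam1 was called higher in females (0.73) and the aminopeptidase Lap3 lower (-0.58). Of 24 type I interferon targets, 6 were called higher in B6 females, led by Ifi44 (1.32), Xaf1 (1.18), the 2′-5′ oligoadenylate synthetase Oas1a (0.98) and its relative Oasl2 (0.86). In C3, Ifit3 (0.95) and Oas1a (0.86) were called. The median log2 sex differences of the interferon-gamma and type I lists were 0.48 and 0.54 in B6 and 0.35 and 0.45 in C3. Without both livers that stood apart, 5 interferon-gamma and 10 type I targets were called in B6, and 2 and 5 in C3. Their medians of C3 against B6, over all livers, were -0.26 and -0.23 in females and -0.12 and -0.20 in males. Between the strains, the transporter Tap2 was called higher in C3 in both sexes (0.52 in females, 0.66 in males) and the chemokine Cxcl10 lower in C3 females (-1.26). The antiviral Mx2 was called higher in C3 in both sexes (1.03 and 1.43). Bst2, which tethers virions, and Parp9 were called lower in both (-1.09 and -0.74 for Bst2, -0.59 and -0.66 for Parp9). Oasl2 was called lower in C3 females (-0.84) and Oasl1 lower in C3 males (-0.89). The 16 partners of the GTPases at the vacuole had median sex differences of 0.01 in B6 and -0.04 in C3. Of these, the ubiquitin ligase Trim21 was called higher in B6 females (0.52). Atg7, which activates the autophagy conjugation on which Irg loading depends, was called lower in C3 in both sexes (-1.23 and -1.60), and its relative in the pathway Gabarapl1 was called higher in C3 males (0.64).

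**Figure D4:**
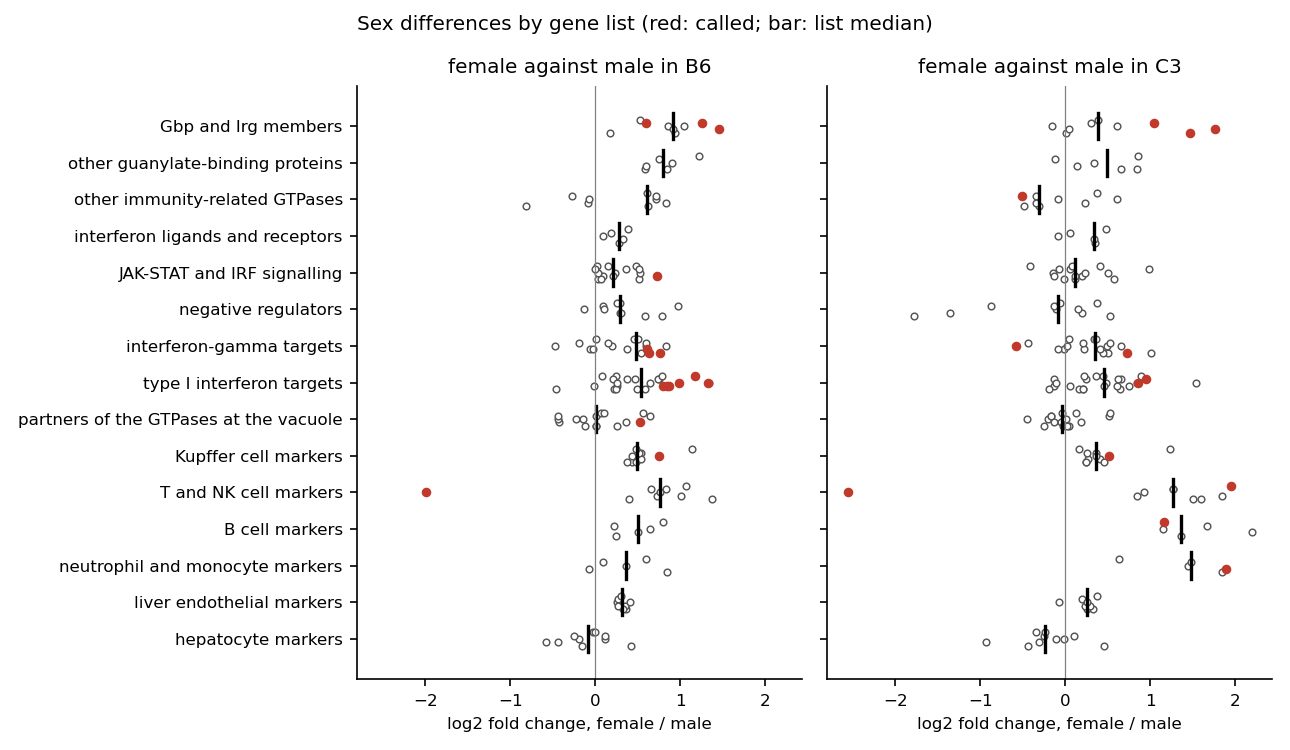
Log2 fold change of female over male for each tested gene of the members and of 14 other lists, in B6 (left) and C3 (right), with called genes in red and the list median as a black bar. The medians of the members, the other Gbp genes and both lists of interferon targets lie right of 0 in both strains, as do those of the Kupffer, lymphocyte and endothelial markers.

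Markers of blood and sinusoidal cells moved with sex in the same direction as the members, and their part in the sex differences was not tested. The summed level of 11 Kupffer cell markers was 743 to 941 TPM in B6_F, 442 to 635 in B6_M, 463 to 667 in C3_F and 305 to 464 in C3_M. All 11 had higher estimates in females in both strains, with median log2 differences of 0.49 in B6 and 0.35 in C3, and Vsig4 was called in both (0.75 and 0.51). The 14 T and NK cell markers summed to 10.1 to 16.0 TPM in B6_F, 6.24 to 14.4 in B6_M, 7.10 to 13.2 in C3_F and 5.65 to 8.36 in C3_M. Of the 9 tested, 8 had higher estimates in females in each strain, with a median of 0.76 in B6 and 1.26 in C3. Gzma was called in C3 (1.95), but not when both livers that stood apart were left out, while Cd4 was called higher in males in both strains (-1.995 and -2.56). The 6 B cell markers summed to 4.20 to 7.21 TPM in B6_F, 2.10 to 6.42 in B6_M, 3.33 to 4.45 in C3_F and 1.06 to 1.65 in C3_M, with median log2 sex differences of 0.50 and 1.36 over the 5 tested, and Cd22 was called higher in C3 females than males (1.16). The 8 endothelial markers summed to 354 to 415 TPM in B6_F, 268 to 306 in B6_M, 309 to 355 in C3_F and 246 to 285 in C3_M, with medians of 0.32 and 0.25, and none was called between the sexes. The 7 neutrophil and monocyte markers summed to 118 to 264 TPM in B6_F, 81.1 to 137 in B6_M, 68.8 to 161 in C3_F and 39.4 to 54.2 in C3_M, with medians of 0.36 and 1.48 over the 5 tested. S100a9 was called higher in C3 females (1.89), but not when these livers were left out, and the neutrophil gene Mpo was at no more than 1 count in any library. Of the 10 hepatocyte markers none was called between the sexes, and their medians were -0.09 in B6 and -0.24 in C3.

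All 11 Kupffer markers had lower estimates in C3 in both sexes. In females 7 of the 11 were called, led by Adgre1 (-0.94), Csf1r (-0.91), Vsig4 (-0.81) and C1qb (-0.79), and in males 4 were called (5 without both livers that stood apart), Adgre1 (-0.91), C1qb (-0.72), Csf1r (-0.60) and Vsig4 (-0.57). The macrophage lysozyme gene Lyz2 was called lower in C3 in both sexes (-0.85 and -0.90), Ccr2 lower in C3 males (-1.94) and the endothelial gene Lyve1 lower in C3 females (-0.98). Without both livers Lyz2 lost its call in males. Of the hepatocyte markers, Apoa1 was called higher in C3 in both sexes (0.84 and 0.71) and Cyp2e1 lower in C3 females (-0.53). At an adjusted p under 0.05, Gbp6 and Gbp2 in both sexes and Irgm1 in females were lower in C3 along with these markers. Igtp and Iigp1 were higher in C3 males, and the other members did not pass this limit in either sex. The part of the markers in these values was not tested.

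Within the groups, the members varied together from liver to liver. Group and pool were removed from log2 CPM by a linear fit, and the residuals of the 20 livers were compared. All 36 pairs of members had a positive Pearson correlation, with a median of 0.745. The highest was that of Gbp7 and Igtp, on different chromosomes, with r = 0.94 and Spearman's rho = 0.947. The lowest was that of Gbp9 and Iigp1, with r = 0.261 and rho = 0.242. Each member was also compared with the mean of the other 8. Igtp (r = 0.945), Gbp7 (0.944) and Gbp3 (0.913) followed it most closely, and Iigp1 (0.725) and Gbp9 (0.663) least. Without the 2 livers farthest from the median these values were 0.913 for Igtp, 0.895 for Gbp7, 0.838 for Gbp3, 0.676 for Iigp1 and 0.512 for Gbp9. Gbp9 and Gbp6 lack an ISRE core in their windows and had r = 0.663 and 0.805. Members with a core ranged from 0.725 (Iigp1) to 0.945 (Igtp). Outside the members, Gbp4, Gbp8, Gbp10 and Gbp11 also lack a core. Their r with the mean of all members was 0.84, 0.734, 0.861 and 0.625. A link between the cores and the co-variation was not tested. The livers share library depth and pool effects that the fit may not fully remove, so these correlations are given as a description.

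The size of the deviations differed between members. The SD of the residuals was 0.407 on the log2 scale for Irgm2, 0.383 for Gbp2 and 0.378 for Igtp, and was smallest for Iigp1 at 0.166 and Irgm1 at 0.188. The livers with the highest mean residual were B6_M replicate 4, at 0.558, and C3_M replicate 1, at 0.527, with all 9 members above 0 in both. The lowest were B6_M replicate 5, at -0.333, B6_F replicates 2 and 3, at -0.323 and -0.321, and C3_M replicate 3, at -0.30, with none of the 9 above 0 in any of them. The females of both strains spanned from -0.323 to 0.301. In B6_M replicate 4 the largest residuals were those of Irgm2 (0.973) and Igtp (0.834), and in C3_M replicate 1 that of Gbp2 (0.921). Without both of these livers the median correlation of the 36 pairs was 0.588 and all 36 pairs remained positive, from 0.0208 to 0.902. Within single groups of 5 livers the median was 0.734 in B6_F, 0.884 in B6_M, 0.531 in C3_F and 0.919 in C3_M. All 36 pairs were positive in both male groups, 35 in B6_F and 29 in C3_F, where the lowest correlation was -0.22.

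**Figure D5:**
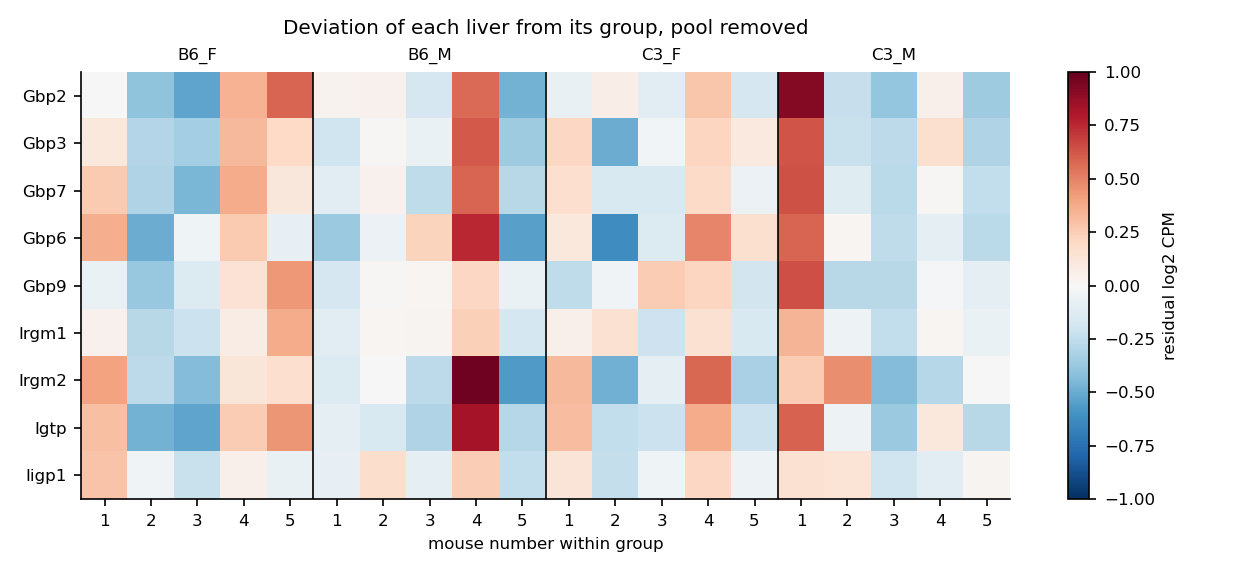
Residual log2 CPM of the 9 members in each of the 20 livers, after removal of group and pool, with red above and blue below the fit. The columns of B6_M replicate 4 and C3_M replicate 1 are red from top to bottom, and those of B6_F replicate 2 and B6_M replicate 5 are blue.

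Among 13695 genes outside the members, those whose residuals were most like the mean of the members included Gm12250 (r = 0.932 over the 20 livers, rho = 0.925, and r = 0.892 without the 2 livers farthest from the median), an immunity-related GTPase, Tap1 (0.911), the peptide transporter, Zbp1 (0.902), a sensor of nucleic acids, and Irf9 (0.887). The median over all genes was -0.00551, 95% of the genes were below 0.492, and 28 genes were above 0.8. Irf1 had r = 0.85, and Irf8 had r = 0.631. By contrast, Stat2 had r = 0.118, Ifngr1 0.463 and Ifngr2 0.00636. The other Gbp genes had a median r of 0.834, and the interferon-gamma and type I lists had 0.667 and 0.589. The Kupffer markers had a median of 0.452, the T and NK cell markers 0.431, the endothelial markers 0.0923 and the hepatocyte markers -0.0386. When levels were compared without removing group, the 5 genes most like the members were Zbp1 (r = 0.929), Parp14 (0.916), Ifit1 (0.906), Samhd1 (0.884) and AW112010 (0.883), and Zbp1 alone was in both sets.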

How the data were processed

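Raw read pair counts for each gene, as deposited by the authors, came from strand-specific, ribosomal RNA-depleted libraries sequenced as 125 base read pairs. They used Cutadapt 1.9.1, STAR 2.5.1b on mm9 and featureCounts of Subread 1.5.0-p1 with RefSeq genes, and left out multimapping and multi-overlapping reads. The deposited TPM values divide these counts by gene length. The headers of the symbol and identifier columns are exchanged in the files, and they were read by content.

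The members and gene lists were chosen with earlier results of these data known. Members are described in every comparison. Of the other lists, up to 4 called genes with the largest change per comparison are named, with Ifng, Ifngr1, Ifngr2, Irf1, Irf8, any other called GTPase, and the 5 genes most like the members by correlation on each scale. A gene that these rules name is not reported here. Genes named beside these rules (Mpo, Socs1, Usp18, Gbp2b, Gbp4, Gbp5, Gbp8, Gbp10, Tgtp1, Tgtp2, Gm12185) were chosen after their values were seen.

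The tests were run in edgeR 4.0.16 under R 4.3.3 (filterByExpr, TMM, quasi-likelihood fit of group and pool over 20 libraries, Benjamini-Hochberg adjustment over 13704 genes). The p-values set each difference against the spread between mice within groups, estimated from all 20 livers together, with 5 mice per group. Log2 CPM used a prior count of 2. Alternatives were DESeq2 1.42.0, limma 3.58.1 on log2(TPM + 1) and log2(TPM + 0.1), other normalizations, no filter, no pool term, a replicate block, fewer groups and each liver left out. The omission of both C3_M replicate 1 and B6_M replicate 4 was added after the data were seen. The pipeline was tested on simulated data. Promoter windows were read from the NCBIM37 genome, which is the mm9 build, and 25283 of 25444 loci had a window. Transcripts for the word search were those of GENCODE. Amino acid sequences were not used here. Intervals and the limit of 3 counts cover counting or sampling error only.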

Additional observations from a re-analysis of the deposited data

Results flagged for a closer look

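In 36 combinations of a member and a group, a liver whose gap to its nearest neighbour took more of the group's range than Dixon's 95% limit was found 5 times, and chance gives about 1 in 20. C3_M replicate 1 was the high liver in 4 of them. It had 5.09 TPM of Gbp2 where the next liver had 2.43, 6.22 TPM of Gbp3 where the next had 3.92, 14.2 TPM of Gbp7 where the next had 8.78, and 8.47 TPM of Gbp9 where the next had 5.15. B6_M replicate 4 was the high liver in the fifth, with 50.2 TPM of Igtp where the next had 21.8. The members co-vary, so these are not 5 separate events.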

How the results depend on the processing

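The counts of members called moved with the settings. Between the strains, against 0 called, DESeq2 called 1 in females and 2 in males, the replicate block called 1 in males, an adjusted p under 0.05 with no fold limit called 3 in females and 4 in males, and leaving out 1 liver in turn gave 0 to 1 in females and 0 to 1 in males. Over all genes DESeq2 called 754 higher and 829 lower in C3 in females, of 16580, and 700 and 976 in males, of 16224. The replicate block called 539 higher and 724 lower in males. Single livers left out gave 556 to 651 higher and 580 to 656 lower in females, and 488 to 580 and 620 to 803 in males. For females against males in B6, against 3 called, fitting only the 2 groups compared gave 1, an adjusted p under 0.05 gave 8, and leaving out 1 liver gave 2 to 5. Over all genes, 324 to 457 were called higher in B6 females with 1 liver left out, against 442. For C3, against 3, no pool term gave 1, and leaving out 1 liver gave 1 to 3. Over all genes these gave 281 and 371 to 638 higher in C3 females, against 563. Leaving out both C3_M replicate 1 and B6_M replicate 4 gave 1 and 2 between the strains and 7 in B6, and moved the median correlation of the pairs to 0.588. Over single livers left out this median lay between 0.653 and 0.764. The interaction stayed at 0 in the alternatives run. Of 1456 values recomputed under an alternative, 1351 kept their direction and side of the threshold or, for counts, stayed within 1.5 times the reported count, and no called value turned its direction.

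The replicate numbers were not taken as pairs: after removal of group and pool, same-numbered livers had mean correlations from -0.0132 to 0.0997. With the replicate block 4 members were called in B6, with Igtp added, and 3 in C3. Of 13704 genes, 417 and 536 were then called higher in females. With log2(TPM + 0.1) the median of all genes moved to 0.114 in B6 and 0.12 in C3, and with log2(TPM + 1) 572 genes were called higher in B6 females and 260 higher in B6 males, against 442 and 427 in edgeR, and 662 and 245 against 563 and 382 in C3. The causes were not tested.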
